A study of Mus musculus with 4 samples.

Results

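A set of 10 genes of renal calcium, magnesium and WNK kinase biology was read from the deposited expression table of sorted mouse kidney cells: Calb1, Trpv5, Pvalb, Umod, Egf, Trpm6, Wnk1, Wnk4, Stk39 and Klhl3. They were taken by gene symbol and all 10 were found among the 38201 genes of the table. Of these, 9 passed the filter on low values and entered the test with 18884 genes in all, while Pvalb was too low. By limma, 0 of the 9 met both an adjusted p under 0.05 and a 2-fold difference. Over all genes tested, 0.0053% met both as lower and 0.0159% as higher in the double knockout cells. The targeted gene Esrp1 did not meet both either, so that 0 calls do not show the set to be unchanged. At an unadjusted p under 0.05 there were 2 of the 9, Calb1 with a higher level and Wnk1 with a lower level in the double knockout cells, where 3.35% of all genes tested were higher and 7.35% lower at that p.

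The double knockout (DKO) embryos were Esrp1 -/- and Esrp2 -/-, and the control embryos were Esrp1 +/+ and Esrp2 -/-, so that both groups lacked Esrp2 and differed in Esrp1. Esrp1 and Esrp2 are splicing regulators of epithelial cells. Kidney cells of embryos at 18.5 days were stained with fluorescent DBA, a lectin that binds the ureteric epithelium, and sorted. The 4 libraries, 2 per genotype, were poly(A)-selected and strand-specific, and each was made from RNA of 3 pooled embryos. The libraries of a group are therefore separate pools, and the spread between single embryos is not seen.

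The distal nephron runs from the thick ascending limb through the distal convoluted tubule to the connecting tubule, which joins the collecting duct that grows from the ureteric bud. Calcium enters connecting tubule cells through an apical channel, is carried across the cell by calbindin and leaves by an exchanger and a pump. Magnesium is taken up between cells in the thick ascending limb and through an apical channel in the distal convoluted tubule. In the WNK pathway, WNK kinases activate the kinases SPAK and OSR1, which phosphorylate the sodium chloride cotransporters, and a ubiquitin ligase built on KLHL3 and cullin 3 removes WNK kinases.

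Values are FPKM, fragments scaled to exon length and to the number of fragments mapped, as deposited, and so are per length and can be compared between genes. Fold changes are differences of log2(FPKM + 0.5), DKO over control, which understate the change of low genes. Adjusted p-values are limma's two-sided p after Benjamini-Hochberg adjustment over all 18884 genes. For 1 gene, exact permutation of 2 against 2 libraries has 0.333 as its smallest p, so that limma, which shares the spread over genes, carries the tests.

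Esrp1 itself, the targeted gene, had values of 8.65 and 7.29 FPKM in DKO, against 27.0 and 31.4 FPKM in the controls, with an adjusted p of 0.143. Esrp2, absent as a functional gene from both groups by genotype, was at 1.35 and 0.519 FPKM in the DKO and 1.72 and 0.802 FPKM in the control libraries. The depth estimated from the steps between low FPKM values was 1.09 times that of DKO replicate 1 in DKO replicate 2, but 0.508 times in control replicate 1 and 1.1 times in control replicate 2. Mitochondrial transcripts made up 19.1% and 18.6% of all FPKM in DKO and 25.5% and 23.2% in the control libraries. The summed FPKM of 12 ureteric and collecting duct markers was 1400 and 1460 in the DKO libraries, against 1040 and 1500 in the controls. Control replicate 1 was thus the lowest in depth and in this sum, but not in every marker. Of the 12, Aqp2 was at 165 FPKM in control replicate 1 and 393 FPKM in control replicate 2, while Wnt11 and Ret were lower in control replicate 2. Among all genes tested, limma called 1 gene lower (0.0053%) and 3 higher (0.0159%). The split was 0 lower and 6 higher after rescaling to TPM, 0 and 3 with median-ratio scaling, and 1 and 7 when libraries were scaled to the ureteric markers. At an unadjusted p under 0.05 there were 1388 genes lower (7.35%) and 633 higher (3.35%), and 939 lower and 1292 higher on the TPM scale.

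The levels spanned a wide range within every library. In both groups the order by mean FPKM was Calb1, Wnk1, Umod, Wnk4, Stk39, Klhl3, Trpv5, Trpm6, Egf and Pvalb. In the DKO libraries no neighbours in that order overlapped. In the controls the values of Umod overlapped those of Wnk4, and the values of Klhl3 overlapped those of Trpv5, so that these neighbours did not differ beyond their spread. Calb1 stood near the top of the whole table, with 0.584% of genes above it in the DKO mean and 0.945% in the control mean, whereas 40.8% of genes stood above Egf in the DKO mean and 41.4% in the control mean. These shares are over all 38201 genes, many of them at 0. Even Pvalb, at 0 in both DKO libraries, had only 53.0% of genes above it in the DKO mean.

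**Figure D1:**
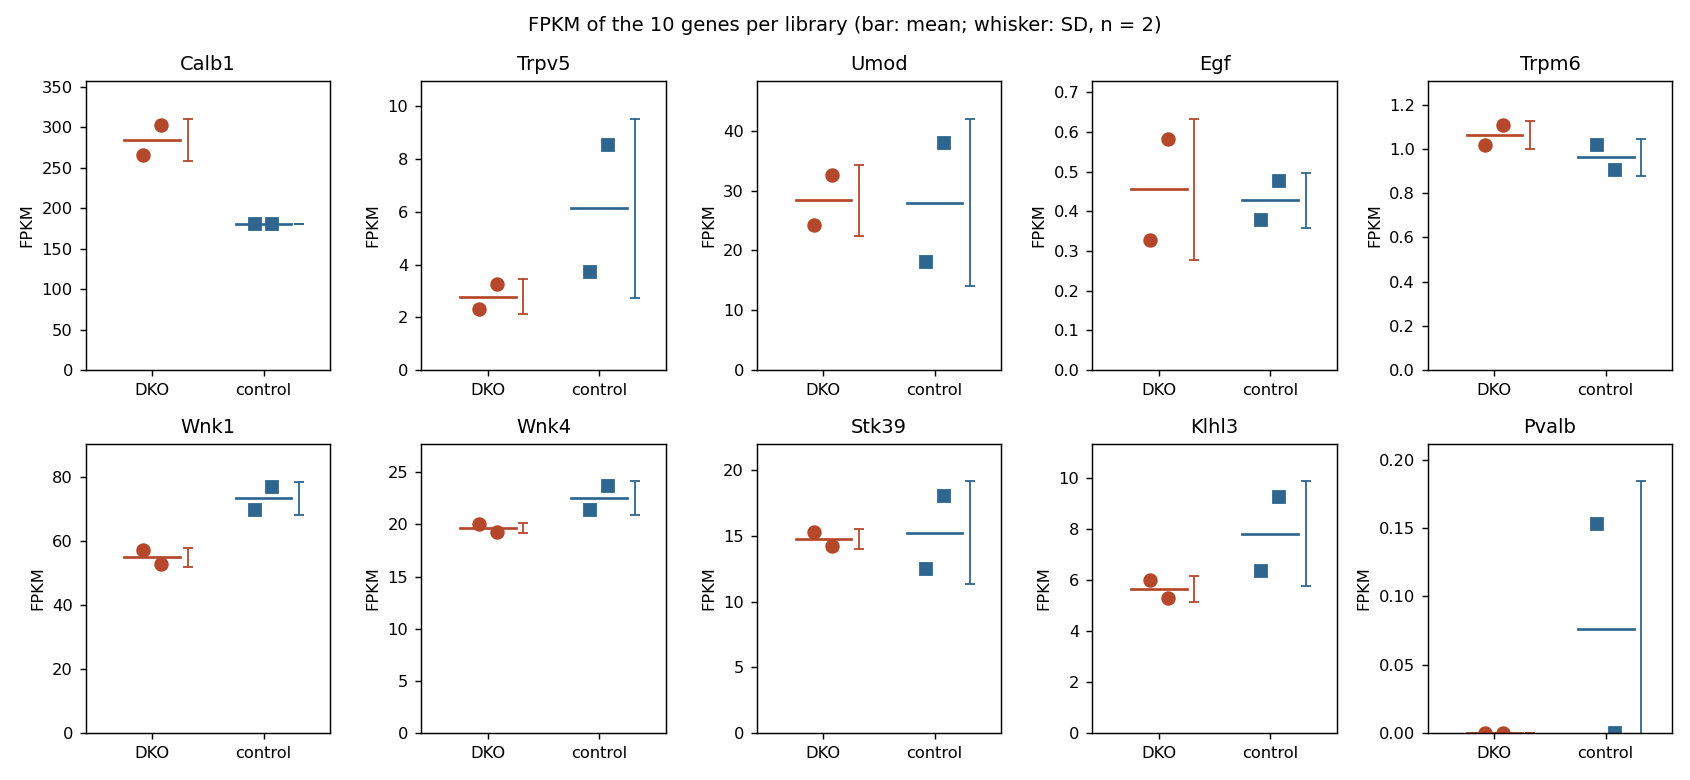
FPKM of the 10 genes in each library, 1 panel per gene with its own axis from 0, DKO as circles and control as squares, with the group mean as a bar and the SD (n = 2) as a whisker. Both DKO points lie above both control points for Calb1 and below them for Trpv5, Wnk1, Wnk4 and Klhl3, and Pvalb is above 0 in 1 control library only.

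Of the 9 tested genes, 4 had both DKO libraries below both controls (Trpv5, Wnk1, Wnk4 and Klhl3), 1 had both above (Calb1) and 4 overlapped. Over all genes tested, 22.6% had both DKO libraries below and 20.8% had both above. The median log2 fold change of the 9 genes was -0.03, against -0.01 over all genes tested. In bulk RNA of sorted cells, a difference in how many cells of a segment were collected and a difference in RNA per cell cannot be told apart.

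The promoters of 2 genes are shown to set a segment-restricted gene beside a widely expressed kinase, as the letters before the RefSeq start of each gene in GRCm38.p6. Trpv5 is expressed in few tubule segments, and Wnk1 in most tissues. Capitals mark TATAAA in Trpv5 and every CG dinucleotide in Wnk1. The Trpv5 stretch is chr6:41680724-41680973 and the Wnk1 stretch chr6:120038656-120038905, each 250 bases on the minus strand and written 5′ to 3′.
Trpv5 promoter: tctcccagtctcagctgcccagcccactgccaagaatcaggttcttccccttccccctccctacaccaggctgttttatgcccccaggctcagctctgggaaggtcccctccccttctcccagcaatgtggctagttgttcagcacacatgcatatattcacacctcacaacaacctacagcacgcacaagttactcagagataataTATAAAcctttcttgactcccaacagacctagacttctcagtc
Wnk1 promoter: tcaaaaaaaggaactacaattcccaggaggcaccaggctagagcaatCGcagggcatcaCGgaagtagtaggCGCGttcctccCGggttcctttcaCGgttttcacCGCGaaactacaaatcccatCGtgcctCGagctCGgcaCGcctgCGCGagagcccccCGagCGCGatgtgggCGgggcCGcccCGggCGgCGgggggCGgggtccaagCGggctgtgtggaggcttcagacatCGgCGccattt

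RefSeq gave 11 promoters for 9 of the 10 genes and none for Calb1. The promoter of Umod held 0 CG dinucleotides and that of Trpv5 held 1, against 26 in Wnk1, 43 in Stk39 and 17 in Wnk4. Klhl3 had 6 and Trpm6 had 7, beside a median of 6 over 32851 mouse promoters of the same length. Egf had 0 in one promoter and 15 in the other, and Pvalb had 4 and 23. TATAAA, searched on both strands, was found 43 bases before the RefSeq start of Trpv5 and in no other promoter of the set, and in 12.4% of all promoters. GENCODE M21 starts Trpv5 at 41680769, inside the stretch shown, so that the motif lies within the gene by that annotation. The Stk39 stretch, chr2:68471982-68472231, lies wholly inside the GENCODE span of Stk39, which starts at 68472268 on the minus strand. The Egf stretch with 15 CG dinucleotides and the Pvalb stretch with 23 also lie wholly inside the spans of their genes. The Wnk1 and Umod stretches overlap the starts of theirs. The nuclear receptor half-sites AGGTCA and GGTTCA, searched in the same way, were in none of the 11 and in 14.0% and 8.85% of all promoters. These are matches of letters in a window and were not tested as binding sites.

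Calcium reabsorption was represented by the cytosolic carrier and the apical channel of the connecting tubule, which lay on opposite sides of the controls. Calb1, on chromosome 4 from 15881264 to 15908064 (mm10, plus strand), encodes calbindin-D28K, the calcium-binding protein that ferries calcium through the cell. It was at 266 and 303 FPKM in the DKO libraries, against 181 and 181 FPKM in the controls. The DKO libraries both lay above the controls, which were nearly equal. The means were 285 ± 25.6 FPKM in DKO and 181 ± 0.55 FPKM in control (SD, n = 2 each), a ratio of 1.57. The log2 fold change was 0.65 (SE 0.12, 95% interval 0.34 to 0.95), with limma's unadjusted p of 0.00291 and adjusted p of 0.365. Scaled to the ureteric markers the fold change was 0.46 and limma's unadjusted p 0.134. Calb1 is also expressed in the ureteric bud of the mouse embryo, and which cells gave this RNA was not tested.

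Trpv5, on chromosome 6 from 41652173 to 41680769 (minus strand), encodes the apical calcium channel of the distal convoluted and connecting tubule. It was at 2.32 and 3.25 FPKM in the DKO libraries, against 3.73 and 8.53 FPKM in the controls. The DKO libraries both lay below the controls, but the controls differed from each other by 2.29 times. The means were 2.78 ± 0.659 FPKM in DKO and 6.13 ± 3.39 FPKM in control (SD, n = 2 each). The log2 fold change was -0.93 (SE 0.42, 95% interval -2.0 to 0.15), with an adjusted p of 0.519. It was -0.38 without control replicate 2 and -1.47 without control replicate 1, so that 1 control library moved the estimate by more than 1.5 times in either direction.

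The 12 genes of a calcium reabsorption list, Calb1 and Trpv5 included, had 0 calls by limma in either direction, with 5 lower and 1 higher at an unadjusted p under 0.05. At that p, 7.35% of all genes tested were lower and 3.35% higher. In 9 of the 12 both DKO libraries were below both controls, against 22.6% of all genes tested. The list's median log2 fold change was -0.51, against -0.01 over all genes tested. S100g, which encodes calbindin-D9K, was at 144 and 215 FPKM in the DKO libraries, against 310 and 561 FPKM in control (log2 fold change -1.24, SE 0.35, adjusted p 0.384). The fold change of S100g was -0.82 without control replicate 2 and -1.67 without control replicate 1. The 2 calbindins thus lay on opposite sides of the controls, with Calb1 above and S100g below.

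Basolateral exit of calcium runs through the exchanger NCX1 and the pump PMCA1. Slc8a1, which encodes NCX1, was at 36.3 and 35.7 FPKM in the DKO libraries, against 45.4 and 46.6 FPKM in control (log2 fold change -0.35, adjusted p 0.384). Atp2b1, which encodes PMCA1, was at 32.5 and 30.2 FPKM in the DKO and 38.1 and 35 FPKM in the control libraries (log2 fold change -0.22, adjusted p 0.554). On the deposited scale both genes of the exit step were thus below the controls in both DKO libraries without passing the test. Atp2b1 overlapped on the TPM scale, with 55.8 and 48.9 in DKO and 56.2 and 54.9 in control, where its log2 fold change was -0.09, and it overlapped when scaled to the ureteric markers.

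Of the hormone inputs, Pth1r, the parathyroid hormone receptor, was at 21.0 and 23.3 FPKM in the DKO libraries, against 28.4 and 43.8 FPKM in control (log2 fold change -0.66, adjusted p 0.427). The fold change of Pth1r was -0.36 without control replicate 2 and -0.97 without control replicate 1. Among list genes chosen after their values were seen, Kl, which encodes klotho, the coreceptor of FGF23, was at 13.3 and 12 FPKM in DKO, against 28.6 and 42.7 FPKM in control (log2 fold change -1.43, adjusted p 0.365). Casr, the calcium-sensing receptor, was at 2.16 and 2.75 FPKM in DKO and at 4.26 and 7.21 FPKM in control (log2 fold change -1.04, adjusted p 0.394). The channel gene Trpv6, the closest relative of Trpv5, overlapped between the groups, with 4.06 and 3.76 FPKM in DKO and 2.96 and 4.21 FPKM in control.

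**Figure D2:**
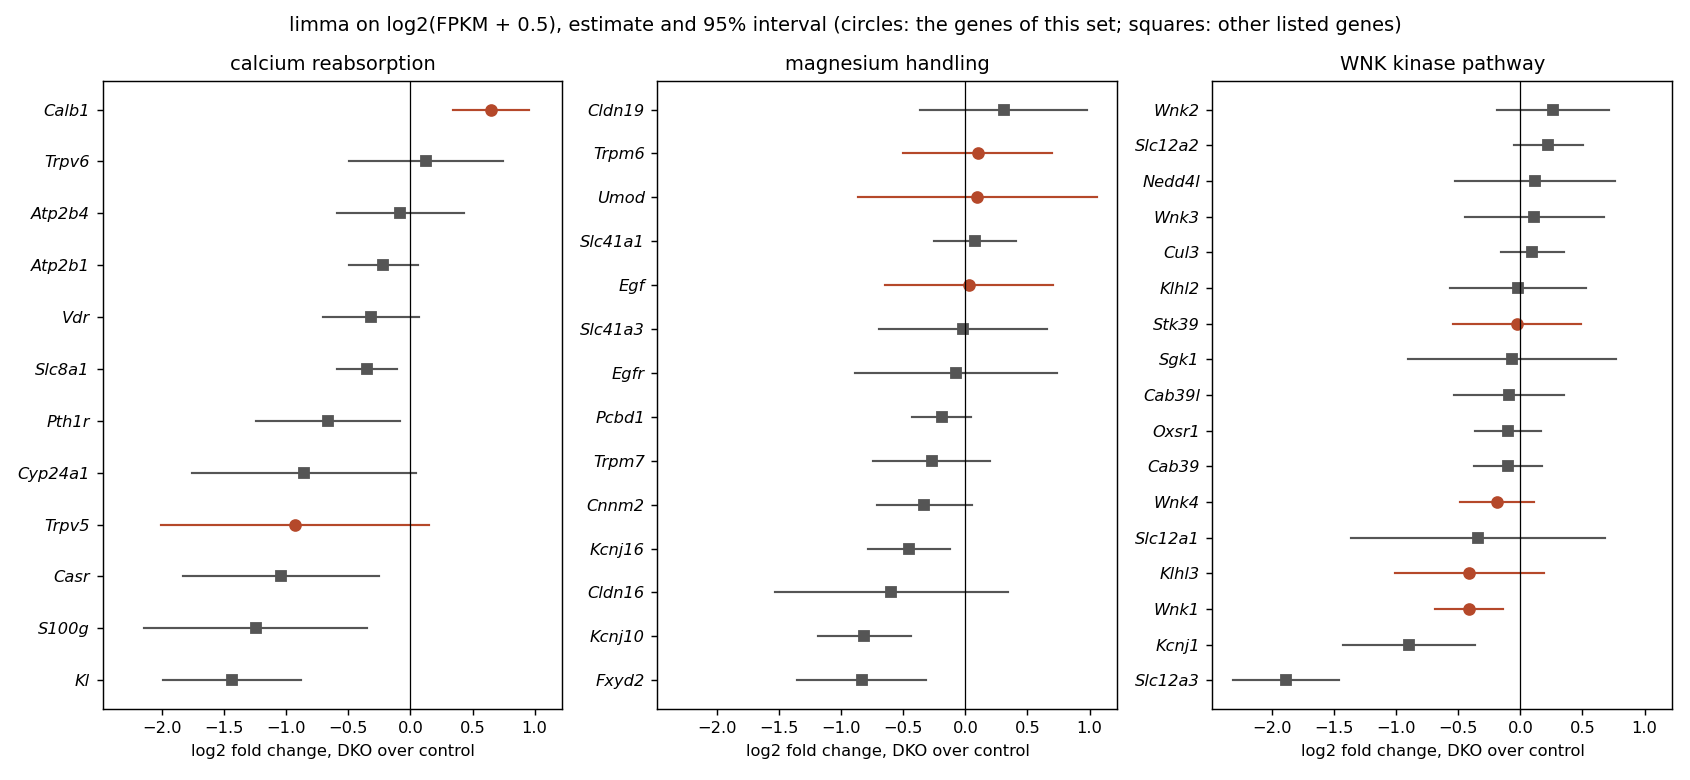
log2 fold change, DKO over control, with its 95% interval for every tested gene of the calcium reabsorption, magnesium handling and WNK kinase lists, the genes of the set as circles and the others as squares. Calb1 at 0.65 is the only gene of the calcium list whose interval lies wholly above 0, and in the WNK list the intervals of Wnk1, Kcnj1 and Slc12a3 lie wholly below 0.

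Magnesium handling was represented by genes of the thick ascending limb and of the distal convoluted tubule, and in all 3 tested genes the groups overlapped on the deposited scale. Umod, on chromosome 7 from 119462711 to 119479282 (minus strand), encodes uromodulin, the main secreted protein of the thick ascending limb. It was at 24.2 and 32.6 FPKM in the DKO libraries, against 18.1 and 37.9 FPKM in the controls. The control values lay outside the DKO values on both sides and differed by 2.09 times. The means were 28.4 ± 5.91 FPKM in DKO and 28 ± 14 FPKM in control (SD, n = 2 each), with a log2 fold change of 0.10 (SE 0.37, 95% interval -0.86 to 1.06) and an adjusted p of 0.934. A difference of up to about 2-fold either way lies within that interval. The fold change was -0.43 without control replicate 1, 0.62 without control replicate 2 and -0.09 when scaled to the ureteric markers, so that its direction was not stable.

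Egf, on chromosome 3 from 129677565 to 129755316 (minus strand), encodes the precursor of epidermal growth factor, which stimulates magnesium uptake in the distal convoluted tubule. It was at 0.329 and 0.581 FPKM in the DKO libraries, against 0.379 and 0.476 FPKM in the controls. The DKO values enclosed the control values, and all 4 libraries were under 1 FPKM. With limma the log2 fold change was 0.03 (SE 0.26, 95% interval -0.64 to 0.71), with an adjusted p of 0.971, and it was -0.06 when scaled to the ureteric markers.

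Trpm6, on chromosome 19 from 18749983 to 18892511 (plus strand), encodes the apical magnesium channel of the distal convoluted tubule. It was at 1.02 and 1.11 FPKM in the DKO libraries, against 1.02 and 0.903 FPKM in the controls. The groups met at 1.02 FPKM. For Trpm6 the log2 fold change was 0.10 (SE 0.23, 95% interval -0.50 to 0.70), with an adjusted p of 0.889, and it was -0.04 when scaled to the ureteric markers.

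Pvalb, on chromosome 15 from 78191114 to 78206400 (minus strand), encodes parvalbumin, a calcium-binding protein of the early distal convoluted tubule, of some neurons and of fast muscle. It was listed at 0 in both DKO libraries, at 0.153 FPKM in control replicate 1 and at 0 in control replicate 2. The value above 0 came from the library of lowest depth, where 1 fragment weighs most. The gene was under the filter and was not tested, and no fold is given. Of 9 marker genes of neurons and muscle, the other sources of parvalbumin, 2 were at 0 in all libraries and the highest value was 0.494 FPKM.

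The 15 genes of a magnesium handling list hold Umod, Egf, Trpm6 and Pvalb, and 14 of them were tested. limma called 0 in either direction, with 3 lower and 0 higher at an unadjusted p under 0.05. At that p, 7.35% of all genes tested were lower and 3.35% higher. In 5 of the 14 both DKO libraries were below both controls, in 1 both were above and 8 overlapped, with a median log2 fold change of -0.13. Over all genes tested, 22.6% were below and 20.8% above. Fxyd2, the gamma subunit of the sodium pump, was at 165 and 186 FPKM in the DKO libraries, against 262 and 373 FPKM in control (log2 fold change -0.84, SE 0.20, adjusted p 0.38). Both DKO libraries were below both controls.

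Pcbd1, which encodes an enzyme of tetrahydrobiopterin recycling, was at 93.2 and 94.1 FPKM in DKO, against 105 and 109 FPKM in control (adjusted p 0.551). Cldn19, a claudin of the thick ascending limb, was at 43.2 and 50.0 FPKM in DKO and 28.9 and 48.4 FPKM in control. Like Umod it had its lowest value in control replicate 1. Of the genes chosen after their values were seen, Kcnj10, a basolateral potassium channel of the distal convoluted tubule, was at 7.04 and 6.96 FPKM in DKO, against 12 and 13.4 FPKM in control (log2 fold change -0.81, adjusted p 0.365). Its partner Kcnj16 was at 33.7 and 34.3 FPKM in DKO, against 42.4 and 51.6 FPKM in control (adjusted p 0.385).

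The WNK pathway genes were at moderate to high levels. On the deposited scale, 3 of the 4 in the set had both DKO libraries below both controls, as had 22.6% of all genes tested. On the TPM scale and without mitochondrial transcripts, Wnk1 alone of the 4 did. Wnk1, on chromosome 6 from 119923969 to 120038672 (minus strand), encodes the most abundant WNK kinase in these libraries. It was at 57.0 and 52.8 FPKM in the DKO libraries, against 69.6 and 76.9 FPKM in the controls. The groups did not overlap, with DKO the lower, and the gap between the groups was larger than the spread within either. The means were 54.9 ± 2.98 FPKM in DKO and 73.3 ± 5.19 FPKM in control (SD, n = 2 each), a ratio of 0.749. The log2 fold change was -0.41 (SE 0.11, 95% interval -0.69 to -0.14), with limma's unadjusted p of 0.0121 and adjusted p of 0.384. On the TPM scale, where the median of all genes was 0.11 higher in DKO, it was -0.28 with limma's unadjusted p of 0.0966. Scaled to the ureteric markers, where the median of all genes was -0.18, it was -0.60 with limma's unadjusted p of 0.051. Wnk1 has a full-length form and a kidney-specific form without most of the kinase domain, which starts from an internal promoter in the distal nephron, and the FPKM per gene do not separate them.

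Wnk4, on chromosome 11 from 101260567 to 101277409 (plus strand), encodes the WNK kinase most tied to the distal convoluted tubule. It was at 20.0 and 19.3 FPKM in the DKO libraries, against 21.4 and 23.7 FPKM in the controls. Both DKO libraries were below both controls on this scale, but the groups overlapped on the TPM scale, with 34.4 and 31.3 in DKO and 31.5 and 37.2 in control, and without mitochondrial transcripts. The log2 fold change was -0.19 (SE 0.11, 95% interval -0.48 to 0.11), with an adjusted p of 0.629.

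Stk39, on chromosome 2 from 68210445 to 68472268 (minus strand), encodes SPAK, the kinase between the WNKs and the cotransporters. It was at 15.3 and 14.2 FPKM in the DKO libraries, against 12.5 and 18.0 FPKM in the controls. The control values enclosed the DKO values. For Stk39 the log2 fold change was -0.03 (SE 0.20, 95% interval -0.54 to 0.49), with an adjusted p of 0.967, and it was 0.10 on the TPM scale.

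Klhl3, on chromosome 13 from 58000228 to 58113592 (minus strand), encodes the adaptor that brings WNK kinases to the cullin 3 ubiquitin ligase. It was at 6.02 and 5.31 FPKM in the DKO libraries, against 6.36 and 9.28 FPKM in the controls. The DKO libraries both lay lower, narrowly for control replicate 1, and the groups overlapped on the TPM scale and without mitochondrial transcripts. The means were 5.66 ± 0.501 FPKM in DKO and 7.82 ± 2.06 FPKM in control (SD, n = 2 each), with a log2 fold change of -0.41 (SE 0.23, 95% interval -1.01 to 0.19) and an adjusted p of 0.604. It was -0.16 without control replicate 2 and -0.67 without control replicate 1.

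The 17 genes of a WNK pathway list, these 4 included, had 0 calls by limma in either direction, with 3 lower (Wnk1, Kcnj1 and Slc12a3) and 0 higher at an unadjusted p under 0.05. At that p, 7.35% of all genes tested were lower and 3.35% higher. In 6 both DKO libraries were below both controls, in 3 both were above and 8 overlapped, with a median log2 fold change of -0.09. Over all genes tested, 22.6% were below and 20.8% above. Slc12a3, which encodes NCC, the thiazide-sensitive cotransporter on which the pathway acts in the distal convoluted tubule, was at 5.6 and 6.68 FPKM in the DKO libraries, against 26.2 and 21.9 FPKM in the controls. Its log2 fold change of -1.88 (SE 0.16, 95% interval -2.31 to -1.46) was the lowest of the list, with limma's unadjusted p of 9.99e-05 and adjusted p of 0.148. Kcnj1, which encodes the apical potassium channel ROMK and was chosen after its values were seen, was at 13.5 and 15.7 FPKM in DKO, against 23.0 and 33.0 FPKM in control (log2 fold change -0.89, adjusted p 0.38).

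Slc12a1, which encodes NKCC2, the cotransporter of the thick ascending limb, was at 74.6 and 87.1 FPKM in the DKO libraries, against 67.7 and 154 FPKM in the controls (adjusted p 0.764). Like those of Umod, its control values lay on both sides of the DKO values. The partner kinase Oxsr1, which encodes OSR1, was at 25.1 and 24.3 FPKM in DKO, against 27.1 and 25.9 FPKM in control, with a log2 fold change of -0.10 that was 0.03 on the TPM scale. The ligase gene Cul3 was at 55.1 and 50.6 FPKM in DKO, against 49.0 and 49.7 FPKM in control, with a log2 fold change of 0.10 that was -0.09 when scaled to the ureteric markers.

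Cab39, which encodes the MO25 scaffold of SPAK and OSR1, was at 40.8 and 44.4 FPKM in DKO and 47.4 and 44.0 FPKM in control, and its log2 fold change of -0.10 was 0.03 on the TPM scale. Sgk1, the aldosterone-induced kinase, was at 31.5 and 46.6 FPKM in DKO and 30.4 and 53.2 FPKM in control, and its log2 fold change of -0.07 was 0.06 on the TPM scale. These genes of the regulatory steps overlapped or nearly met between the groups.

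Ratios of 2 genes within 1 library do not depend on how the libraries were scaled. The ratio of Trpv5 to Calb1, the apical channel to the carrier, was 0.0087 and 0.0107 in the DKO libraries, against 0.0207 and 0.047 in the controls. Both DKO libraries were below both controls, with a ratio of the means of 0.287. That order follows from the genes themselves, as Trpv5 was below and Calb1 above both controls. The ratio of Umod to Calb1 was 0.0909 and 0.108 in DKO and 0.1 and 0.209 in control, and overlapped. Since Calb1 is also expressed in the ureteric bud, this ratio does not set 1 segment against another.

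The ratio of Egf to Slc12a3 was 0.0587 and 0.0871 in the DKO libraries, against 0.0145 and 0.0217 in the controls. The ratio was higher in both DKO libraries, where Slc12a3 was below both controls and Egf overlapped them. The ratio of Pvalb to Slc12a3 was 0 in both DKO libraries and 0.00583 and 0 in the controls. Trpm6 to Trpm7, its widely expressed relative, was 0.0345 and 0.0468 in DKO, against 0.0279 and 0.032 in control. Trpm7 itself was at 29.6 and 23.8 FPKM in DKO and 36.6 and 28.2 FPKM in control, so that the ratio separated the groups where neither gene did.

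The ratio of Wnk4 to Wnk1 was 0.352 and 0.367 in the DKO libraries, against 0.307 and 0.308 in the controls. It was higher in both DKO libraries than in the controls, which were nearly equal. Stk39 to Oxsr1 was 0.608 and 0.584 in DKO, inside the control values of 0.463 and 0.694. Klhl3 to Cul3 was 0.109 and 0.105 in the DKO libraries, below the control values of 0.13 and 0.187. That order too was fixed, as Klhl3 was below and Cul3 above both controls on the deposited scale. No test was made on these ratios.

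**Figure D3:**
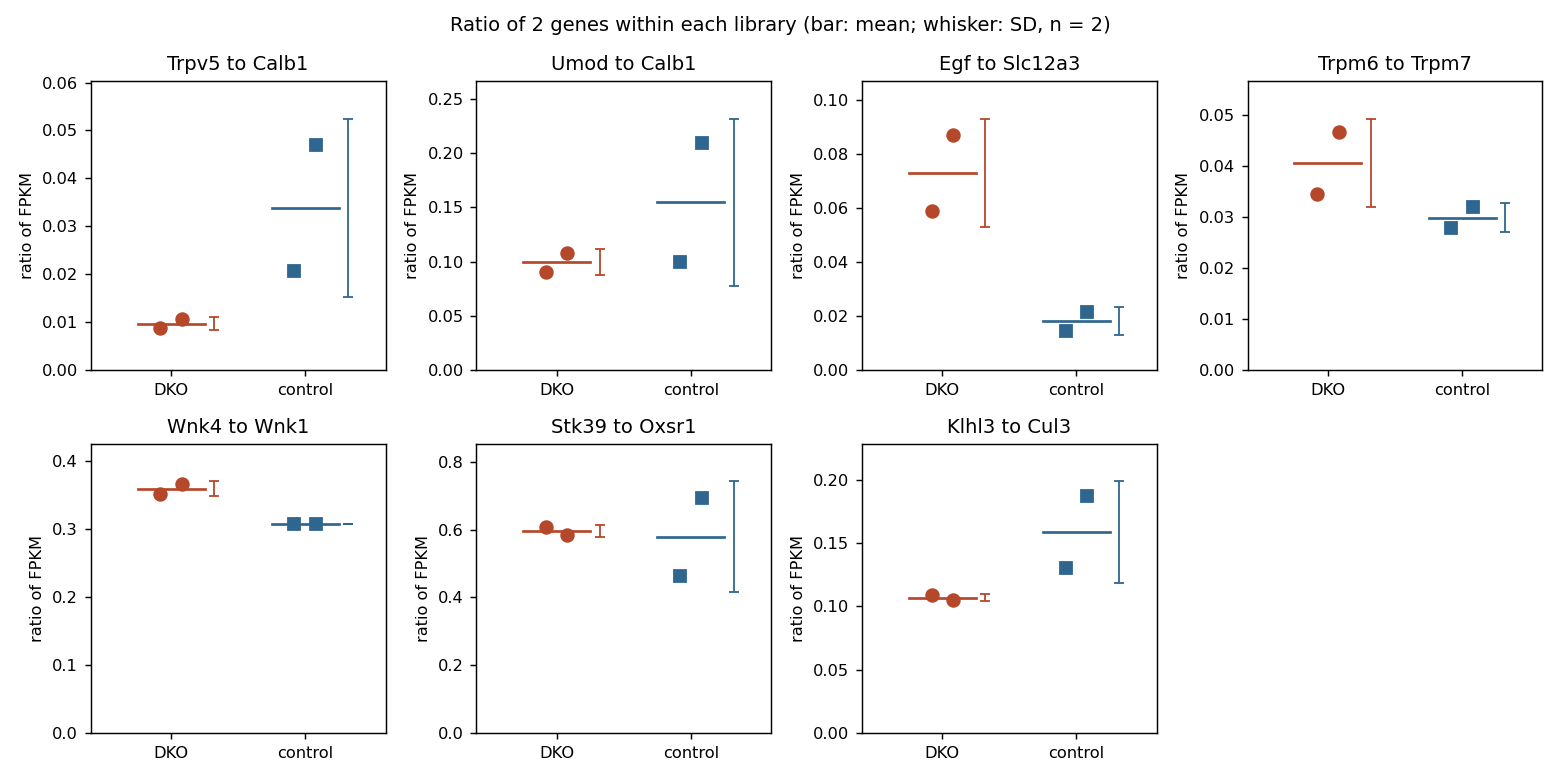
Ratio of the FPKM of 2 genes within each library, 1 panel per ratio with its own axis from 0, DKO as circles and control as squares, with the group mean as a bar and the SD (n = 2) as a whisker. Trpv5 to Calb1 and Klhl3 to Cul3 are lower in both DKO libraries than in both controls, and Egf to Slc12a3, Trpm6 to Trpm7 and Wnk4 to Wnk1 are higher.

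Set beside marker lists of the nephron segments, the genes of the set did not all lie on the side of most of their list. The counts and medians of the lists include the genes of the set themselves. Umod, at a log2 fold change of 0.10, belongs to a list of 12 thick ascending limb markers with a median of -0.47, of which 5 had both DKO libraries below both controls and 7 overlapped. Trpm6, Egf, Wnk4 and Klhl3 belong to the list of the distal convoluted tubule, where 5 of 8 tested markers were below and 3 overlapped, with a median of -0.30. Wnk4 and Klhl3 were among those below, and Trpm6 and Egf among those that overlapped. Calb1, which the ureteric bud also expresses, was the only one of 7 connecting tubule markers with both DKO libraries above the controls. Of these 7, 5 were below and 1 overlapped, with a median of -0.35. Over all genes tested, 22.6% were below and 20.8% above, with a median of -0.01. No test of a gene against its list was made.

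**Figure D4:**
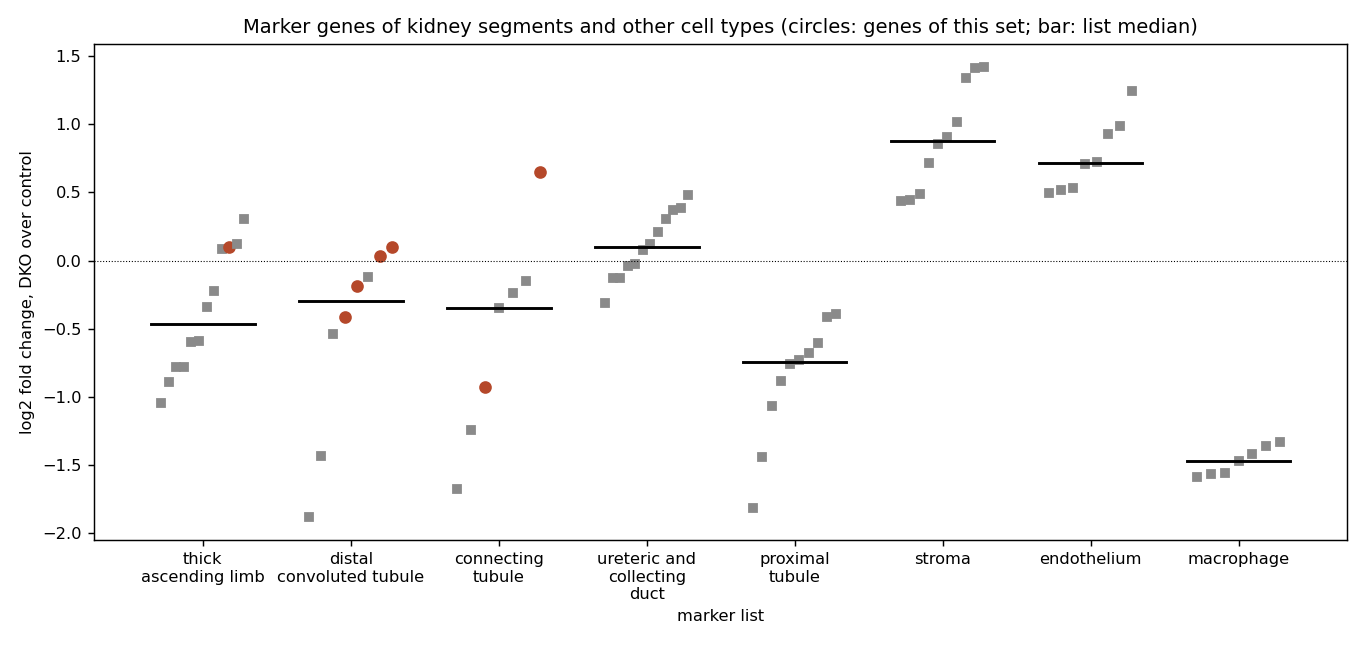
log2 fold change, DKO over control, of each tested marker gene (points) and the list median (bar) for nephron segments, ureteric epithelium and other cell types, the genes of the set as circles. Calb1 lies at 0.65 in the connecting tubule list, whose median is -0.35, and the macrophage list has the lowest median, -1.47.

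Markers of other cells also differed between the sorted samples. All 10 proximal tubule markers had both DKO libraries below both controls (summed FPKM 191 and 158 in DKO, against 344 and 378 in control), with 1 called lower, Gatm. All 7 macrophage markers in the table were below, with sums of 426 and 395 FPKM in DKO, against 1670 and 782 FPKM in control. All 10 stromal markers were above, with sums of 214 and 352 FPKM in DKO, against 104 and 145 FPKM in control, as were 6 of 8 endothelial markers, with sums of 188 and 232 FPKM in DKO, against 97.3 and 170 FPKM in control. Of 12 ureteric markers, 5 were above, 1 below and 6 overlapped. Over all genes tested, 22.6% were below and 20.8% above. The part of these cell types in the values of Calb1, Wnk1 and the other genes of the set was not tested.

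The choice of scale and of libraries moved some of the 9 tested genes and not others. Calb1 kept both DKO libraries above both controls, and Trpv5 and Wnk1 kept both below, on all 5 scales used: FPKM as deposited, TPM, median-ratio, without mitochondrial transcripts and scaled to the ureteric markers. Wnk4 and Klhl3 overlapped on the TPM scale and without mitochondrial transcripts. Trpm6 was above in both DKO libraries on the TPM and median-ratio scales and without mitochondrial transcripts, and Stk39 was below when scaled to the ureteric markers. Without control replicate 1, the shallow library, the log2 fold change was 0.65 for Calb1, -0.48 for Wnk1 and -1.47 for Trpv5. Without control replicate 2 these were 0.65, -0.34 and -0.38, and each of these fits rests on 1 control library.

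**Figure D5:**
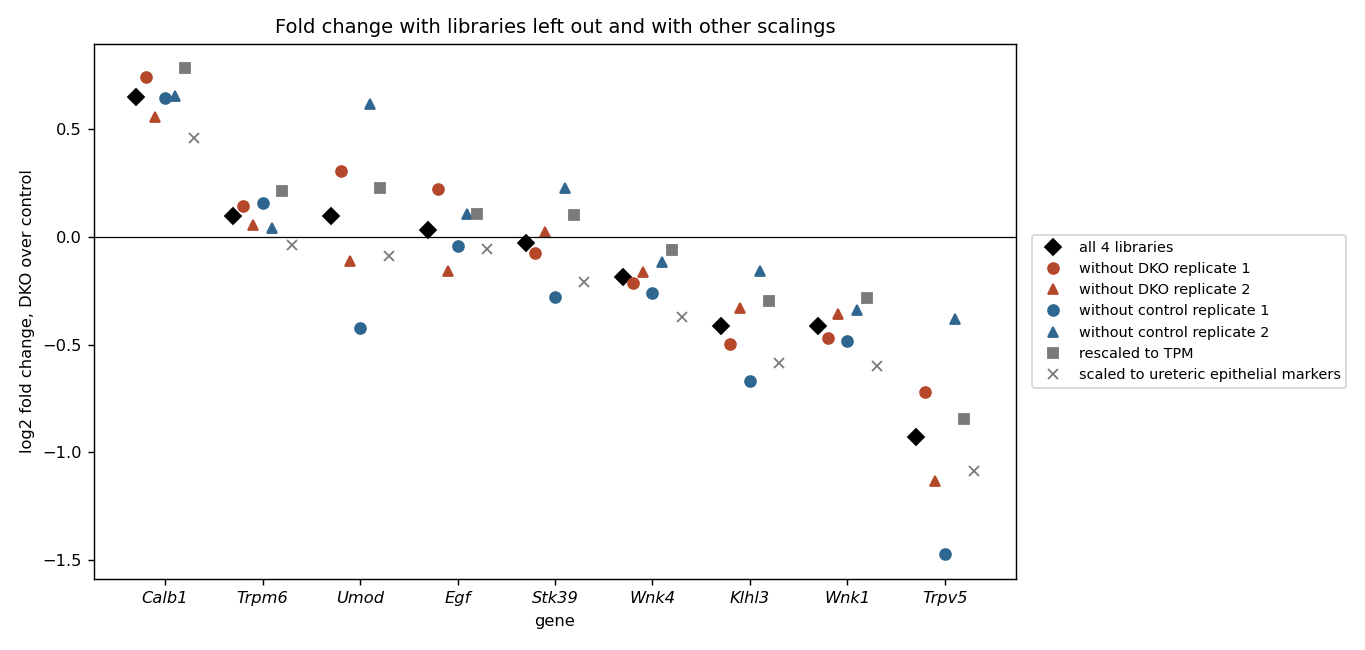
log2 fold change, DKO over control, of the 9 tested genes with all 4 libraries (black diamonds), with 1 library left out (circles and triangles) and with other scalings (squares and crosses). Calb1 stays between 0.46 and 0.78 and Wnk1 between -0.60 and -0.28, while Umod lies between -0.43 and 0.62 depending on the control library left out.

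Other genes overlap some members of the set in the genome. In the GENCODE M21 annotation of mm10, Umod, Egf, Trpm6, Wnk1 and Wnk4 each overlap at least 1 gene on the opposite strand, and Egf, Wnk1 and Klhl3 each overlap 1 gene on the same strand, Gm24515, Mir706 and Mir874. The libraries keep the strand, but no source used here says whether the FPKM were computed by strand, so that reads of Umod and its antisense partner Gm44588, for example, may not be separated. Calb1, Trpv5, Pvalb and Stk39 overlap no other annotated gene.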

How the data were processed

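RNA was sequenced from DBA-sorted kidney cells, in 2 DKO and 2 control libraries. Reads were mapped to mm10 and Ensembl genes, and the authors deposited FPKM for each gene in each library. TopHat 1.4.1 and Cuffdiff 2.2.1 appear in the processing notes of the submitters. No source used here gives the scaling between libraries. The deposited group means were not used, and 2 empty lines of the table were left out. A gene listed at 0 may be a failed estimate rather than an absent transcript.

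The test was limma 3.58.1 (R 4.3.3) on log2(FPKM + 0.5), with the variance allowed to follow expression, for genes averaging more than 0.1 FPKM in the higher group. A call needed an adjusted p under 0.05 and averages that differed at least 2-fold. Python 3.11.15, pandas 2.3.3 and matplotlib 3.10.9 made the tables and figures. The test was tested on simulated data. FPKM are not counts and give no read totals. Relative depth came from the spacing of the values up to 0.3 FPKM.

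The genes of the set and the 12 gene lists were chosen with earlier results of these data known. Values are given for every gene of the set, for the 4 other genes of each pathway list with the highest mean FPKM, for Esrp1 and Esrp2, and for both genes of each ratio. Kl, Casr, Trpv6, Kcnj10 and Kcnj1 were chosen after their values were seen. Of the marker genes, 1 symbol was not in the table. An item of the magnesium list is not reported here and was left out of its counts. The alternatives tried were pseudocounts of 0.1 and 1, no filter or a minimum of 1 FPKM, rescaling to TPM, by median ratio or without mitochondrial transcripts, limma without the variance trend or with robust estimation, a replicate block, and each library left out in turn. Scaling to the ureteric markers was added after the data were seen. Gene positions are from GENCODE M21, and promoters from RefSeq for GRCm38.p6.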

Additional observations from a re-analysis of the deposited data

How the results depend on the processing

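No gene of the set and none of the 3 pathway lists' genes was called by limma under any alternative; the smallest adjusted p of a gene of the set ranged between 0.157 and 0.96. The count of all genes called was 4, and 1 without a filter, 8 without mitochondrial transcripts, 2 without the variance trend, 8 when scaled to the ureteric markers (chosen after seeing the data) and 0 with any library left out; the cause was not tested. Replicate numbers are shared by the groups, and the correlation of the replicate differences across genes was 0.105 over 2 pairs, too few to show or to exclude pairing. Whether libraries of the same number were matched in any other way is not known. With the replicate block 16 genes were called, none of them in the set.

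Directions turned for Stk39 on the TPM scale (0.10) and without mitochondrial transcripts (0.0035), for Cab39 (0.0322), Sgk1 (0.0613) and Oxsr1 (0.0322) on the TPM scale, and for Umod (-0.0886), Egf (-0.0576), Trpm6 (-0.0371) and Cul3 (-0.091) with the ureteric markers, all as log2 fold changes. With 1 library left out, the log2 fold change ranged between -0.43 and 0.62 for Umod, -0.16 and 0.22 for Egf, -0.28 and 0.22 for Stk39, -0.47 and 0.33 for Sgk1, -0.0594 and 0.68 for Cldn19, -0.74 and 0.12 for Esrp2 and -0.93 and 0.25 for Slc12a1. With 1 library left out, the median log2 fold change ranged between -0.28 and -0.04 for the set, -0.67 and -0.35 for the calcium list, -0.31 and -0.04 for the magnesium list and -0.28 and 0.10 for the WNK list, with the lowest of each without control replicate 1. Scaled to the ureteric markers these medians were -0.21, -0.69, -0.30 and -0.27, in that order. The set's -0.04 came without control replicate 2, where Pvalb passed the filter and 10 genes entered. Among the 9 genes tested with all libraries, the middle value there was 0.0389, that of Trpm6. The sign of the set's median was thus not stable. Where a library is left out, its group has 1 library, which is assumed to vary like the others. The shallow control replicate 1 and the 2 libraries per group limit all these estimates, those of the lowest genes, Trpm6, Egf and Pvalb, included. Among the 9 tested genes the SE was largest for Trpv5 (0.42) and Umod (0.37), against 0.26 for Egf and 0.23 for Trpm6.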
